A study of Rattus norvegicus with 48 samples.

Results

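The miR-30 family was followed in the blood plasma of rats with a calvaria defect. Its members were listed by name, with earlier results of these data known. They are both arms of miR-30a, miR-30d and miR-30e, and the 5p arms of miR-30b and miR-30c, which makes 8 of the 645 mature miRNAs in the count table. The 48 samples come from 6 strong and 6 weak regenerators, each of the 12 rats having been bled before surgery (baseline) and 1, 4 and 8 weeks after it. By the study's methods, these rats healed best and worst by microCT bone volume and were picked once the study had ended. The animals were male Sprague-Dawley rats by the methods (the abstract names Wistar), 12 weeks old, with no genetic modification stated, and all underwent the same trephine surgery of the calvaria. The defects were left empty or filled with a collagen hydroxyapatite scaffold, which was plain, loaded with a plasmid coding for BMP2 and miR-590-5p, or loaded with extracellular vesicles of mesenchymal stromal cells. These treatments were unevenly spread over strong and weak regenerators and were not mapped to single rats here. No unoperated rats were analysed, so weeks after surgery cannot be told apart from age, repeated blood sampling or the handling of each time point.

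A miRNA hairpin is cut into a 5p and a 3p arm, of which usually 1 is loaded into an Argonaute protein and retained while the other is largely lost. The seed of the loaded arm, bases 2 to 8, pairs with target mRNAs. The 5p arms of the miR-30 family share a seed, are found in most tissues and are known to repress osteogenic regulators such as Runx2 and Smad1, as well as genes of autophagy and of the epithelial to mesenchymal transition. The 3p arms carry other seeds and so other predicted targets. In plasma, miRNAs circulate in vesicles and in protein complexes that are shed by many tissues and by blood cells.

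The mature sequences show why the family's arms are described apart. They were taken from RefSeq (assembly GRCr8) for the 4 members found in its table, and the capitals mark the seed.
rno-miR-30a-5p: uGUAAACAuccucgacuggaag
rno-miR-30e-5p: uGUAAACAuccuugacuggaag
rno-miR-30c-5p: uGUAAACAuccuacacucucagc
rno-miR-30a-3p: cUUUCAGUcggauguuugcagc
The 5p arms of miR-30a and miR-30e differed by 1 base, C13U, counted from 1 at the 5′ end of miR-30a-5p, and the 5p arms of miR-30a and miR-30c differed at 5 of 22 bases. The authors allowed 1 mismatch when they assigned reads to miRNAs, so reads of miR-30a-5p and miR-30e-5p could be exchanged and the split between them is uncertain. The miR-30e hairpin also holds a stretch that differs from miR-30a-3p at 1 of 22 bases, so the same doubt applies to the 3p arms of miR-30a and miR-30e and to the levels, shares and arm ratios given for these hairpins. Both arms of miR-30d and miR-30b-5p had no sequence here and were not compared. Whether their reads could be exchanged with those of other members, and so their levels, shares and ratios altered, was not checked. Among the 583 rows of the count table with a sequence, the seed GUAAACA occurred in 4, the fourth being that of rno-miR-384-5p. Both arms of miR-30a lie in 1 hairpin at chr9:33233941-33234011 on the plus strand, shown here with both arms in capitals because the ratio of such arms is described further on.
rno-mir-30a hairpin: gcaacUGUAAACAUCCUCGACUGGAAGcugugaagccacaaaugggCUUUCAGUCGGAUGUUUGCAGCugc
The miR-30e hairpin (chr5:139637450-139637541, minus strand) and the miR-30c-1 hairpin (chr5:139634455-139634543, minus strand) lie within the gene Nfyc, 2906 bases apart. The miR-30c-2 hairpin (chr9:33253682-33253765, plus strand) lies 19670 bases from that of miR-30a. Mature miR-30c-5p comes from both miR-30c hairpins and its reads cannot be divided between them.

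The total miRNA count ranged from 393259 to 1586398 per sample (median 796311), and levels are given as RPM, the reads of a miRNA per 1000000 miRNA reads of the sample. RPM compares a miRNA between samples, while its capture in the library may differ between sequences. All members were detected in all 48 samples. Ordered by mean RPM over the samples, miR-30a-5p ranked 27th of the 645 miRNAs, miR-30d-5p 51st and miR-30e-5p 62nd, followed by miR-30e-3p (72nd), miR-30a-3p (88th), miR-30c-5p (99th) and miR-30b-5p (113th). The least abundant member was miR-30d-3p, ranked 268th, which had 2 to 38 reads per sample, so its values carry a large counting error. Within the 5p arms, miR-30a was above miR-30d in 48 of 48 samples, miR-30d above miR-30e in 47, miR-30e above miR-30c in 48 and miR-30c above miR-30b in 48. Among the 3p arms, the order miR-30e, miR-30a, miR-30d held in 48 of 48 samples. This order was thus nearly the same at each time point.

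The week 8 samples stood apart from the others by more than the family. The spike-in UniSp2, a synthetic RNA added in equal volume at extraction, gave 91.1 to 143.9 reads per 1000 miRNA reads at week 8 and 23.3 to 60.4 at the other time points. The 7 red blood cell miRNAs of a marker list summed to 265895 to 369547 RPM at baseline and 354878 to 482183 RPM at week 8, where 4 of them were called higher and 1 lower, against 14.2% and 26.1% of all miRNAs. At week 1, 6 of these 7 and 2 of the 3 liver markers were called higher, against 12.5% of all miRNAs. The 6 platelet and leukocyte markers summed to 76399 to 125325 RPM at baseline and 60278 to 99841 RPM at week 8 (1 called higher, 2 lower). The 3 liver markers summed to 4338 to 13838 RPM at baseline and 3357 to 10864 RPM at week 8 (0 higher, 2 lower), and the 5 muscle markers to 312 to 9815 RPM and 847 to 7810.5 RPM (0 higher, 1 lower). None of the blood cell and liver markers was at 0 in a sample, while 4 of the 5 muscle markers were at 0 in at least 1. Their part in the results of the family was not tested, and in plasma fewer cells that shed a miRNA and less of it per cell cannot be told apart.

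At week 8 the 5p arms fell and the 3p arms rose relative to the other miRNAs. Week 8 was compared with baseline by edgeR's quasi-likelihood test over 48 samples, with no term for the animal and with Benjamini-Hochberg adjustment. All 8 members passed the threshold of a false discovery rate (FDR) under 0.05, against 40.3% of the 620 miRNAs tested. These 620 had a mean of at least 0.036 RPM, so many rarer than the members are among them. The 5 members called lower stood against 26.1% of all miRNAs and the 3 members called higher against 14.2%. The median log2 fold change was -1.10 over the 5 5p arms and 1.08 over the 3 3p arms, while over all abundant miRNAs (mean of at least 10 RPM) it was -0.21 for 139 5p arms and -0.12 for 151 3p arms. The directions of the 3p arms hold under scaling to the miRNA reads only: scaled to UniSp2, all 8 members were lower at week 8, as described further on.

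**Figure D1:**
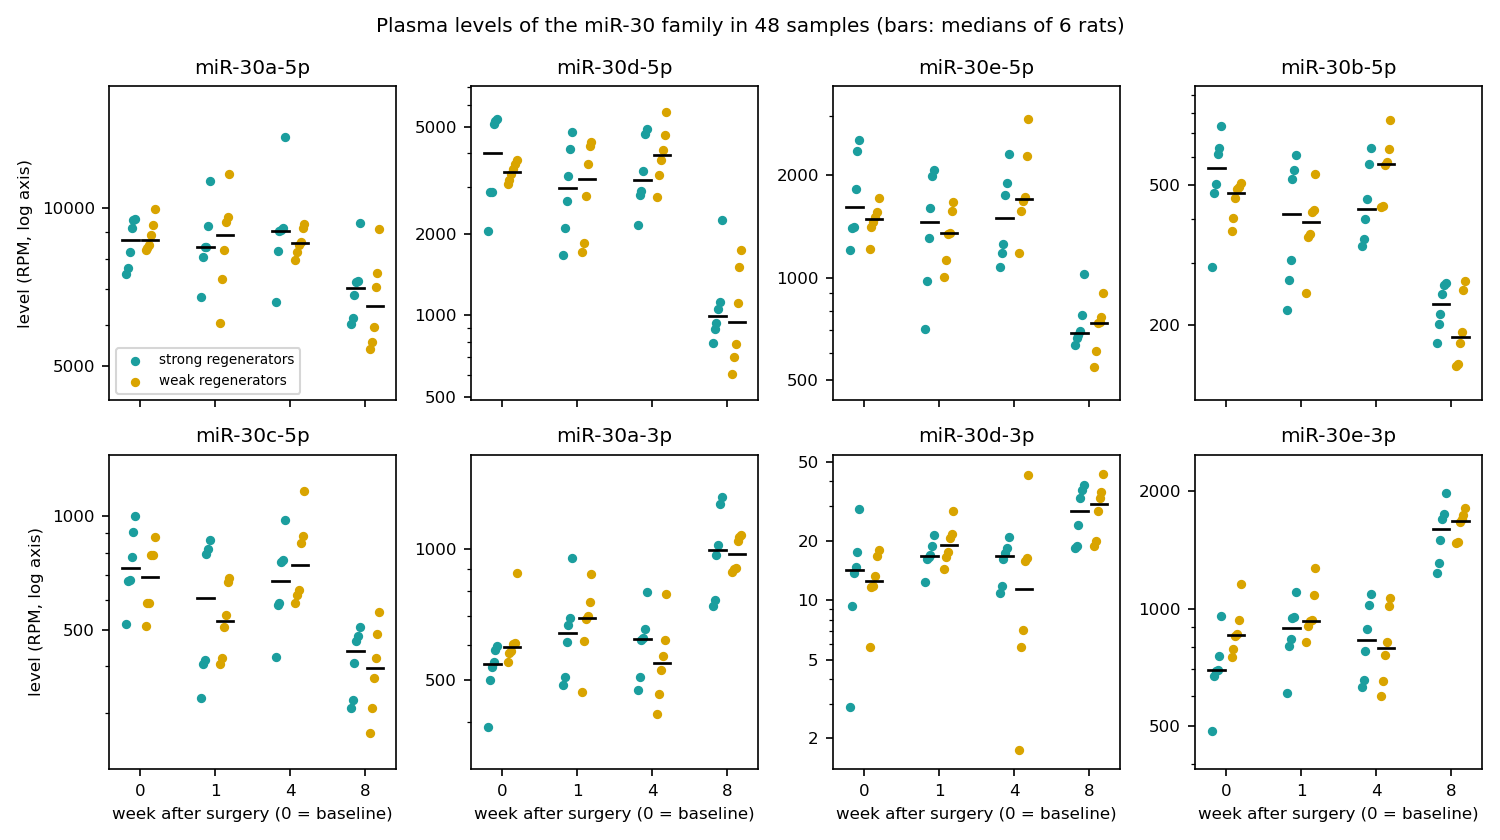
Level of each of the 8 members (RPM, log axis) in 48 plasma samples by week after surgery, where 0 is baseline; each point is a rat, turquoise for strong and yellow for weak regenerators, and black bars are medians of 6 rats. The medians of the 5p arms are lowest and those of the 3p arms highest at week 8, and the points of strong and weak regenerators overlap throughout.

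The most abundant member, miR-30a-5p, had the smallest log2 fold change of the 8 at week 8 under TMM scaling, while under UniSp2 scaling it was at -2.18, further from 0 than the 3p arms. Its lowest, median and highest levels were 7497, 8669.7 and 9932 RPM at baseline, 6054, 8422 and 11589.5 RPM at week 1, 6622, 8816 and 13598 RPM at week 4, and 5388, 6948 and 9355 RPM at week 8. The week 8 range overlapped those of all other time points, and 9 of the 12 week 8 samples lay below the lowest baseline sample. The log2 fold change at week 8 was -0.27 (standard error 0.09, FDR = 0.0167 in edgeR), with lower RPM in 11 of 12 rats. This call was not robust: it was lost with the scaling of RLE (-0.13, FDR = 0.241), with the filter filterByExpr (-0.12, FDR = 0.204), in DESeq2 (-0.13, FDR = 0.172), and when any 1 of strong rats 5, 17, 23 and 29 or of weak rats 3, 6 and 7 was left out (from -0.21 to -0.12).

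The largest fall was that of miR-30d-5p, the second most abundant 5p arm. It had 2062, 3409 and 5356 RPM (lowest, median and highest) at baseline, 1672, 3030.3 and 4788 RPM at week 1, 2162, 3601 and 5668 RPM at week 4, and 605, 998 and 2262 RPM at week 8. At week 8, 10 of the 12 samples lay below all 36 samples of the other time points. Such a separation of at least 10 samples was found for 4.84% of the 310 abundant miRNAs. The log2 fold change was -1.66 (standard error 0.20, FDR = 4.01e-10, edgeR), a level 3.17 times lower, and the RPM was lower in 12 of 12 rats.

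The 5p arm of miR-30e ran between 1204 and 2541 RPM at baseline (median 1485), between 705 and 2079.6 RPM at week 1 (median 1352), between 1077 and 2936 RPM at week 4 (median 1708), and between 544 and 1024 RPM at week 8 (median 717). All 12 week 8 samples lay below the baseline range, while the ranges of weeks 1 and 8 overlapped. Its log2 fold change at week 8 was -1.10 (standard error 0.17, FDR = 2.61e-07, edgeR), with 12 of 12 rats lower.

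The 2 rarest 5p arms fell as well. miR-30b-5p had a median of 489 RPM at baseline (range 293 to 734), 391 RPM at week 1 (220.4 to 608), 513 RPM at week 4 (335 to 763) and 208 RPM at week 8 (153 to 267), and all 12 week 8 samples were below the baseline range. miR-30c-5p, the product of both miR-30c hairpins, had a median of 729 RPM at baseline (512 to 1000.5), 528 RPM at week 1 (329 to 865), 697 RPM at week 4 (423 to 1165) and 415 RPM at week 8 (267 to 556), with 11 of the 12 week 8 samples below the baseline range. The log2 fold changes at week 8 were -1.16 for miR-30b-5p (standard error 0.16, FDR = 4.7e-08) and -0.77 for miR-30c-5p (0.16, FDR = 7.91e-05), both in edgeR and both with 12 of 12 rats lower.

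miR-30a-5p made up more of the 5p arms of the family at week 8 than at baseline. The 5 5p arms together gave 15253 ± 2192 RPM in the baseline samples, 14175 ± 3159 RPM 1 week, 15712 ± 2796 RPM 4 weeks and 9434 ± 1929.6 RPM 8 weeks after surgery (mean ± SD, n = 12). The share of miR-30a-5p in this sum was 57.8% ± 4.99 at baseline and 74.0% ± 3.04 at week 8 (SD, n = 12), and all 12 week 8 samples were above the highest baseline share. The week 8 range of 69.8% to 77.8% overlapped that of week 1, 52.7% to 73.0%, and 6 of the 12 week 8 samples were above all others. The share of miR-30d-5p was 23.6% ± 3.52 at baseline and 11.6% ± 2.61 at week 8, with all 12 week 8 samples below the baseline range. These shares do not depend on the scaling of the libraries.

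The 3p arms moved the other way in RPM. miR-30e-3p had 486, 775 and 1155 RPM (lowest, median and highest) at baseline, 610.0, 933 and 1270.0 RPM at week 1, 599, 800.2 and 1092 RPM at week 4, and 1237, 1684 and 1987 RPM at week 8. At week 8, 11 of the 12 samples lay above all 36 others, a separation of at least 11 samples that was found for 2.58% of the 310 abundant miRNAs. Its log2 fold change was 1.08 (standard error 0.11, FDR = 1.44e-11, edgeR), with 12 of 12 rats higher in RPM, and -0.85 when scaled to UniSp2.

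miR-30a-3p, on the same hairpin as the most abundant member, had a median of 579.7 RPM at baseline (range 389.8 to 883), 679 RPM at week 1 (469.5 to 955), 592 RPM at week 4 (417 to 795) and 995 RPM at week 8 (738 to 1318). The week 8 range overlapped that of each other time point, and 10 of the 12 samples were above the highest baseline sample. The log2 fold change was 0.85 (standard error 0.11, FDR = 1e-08, edgeR), with 12 of 12 rats higher, and -1.09 when scaled to UniSp2. The rare miR-30d-3p had a median of 13.5 RPM at baseline (range 2.88 to 29), 17.3 RPM at week 1 (12.3 to 28.4), 16 RPM at week 4 (1.75 to 42.9) and 30.5 RPM at week 8 (18.5 to 43.7), so that its ranges overlapped throughout. Its log2 fold change was 1.17 (standard error 0.26, FDR = 0.000176, edgeR), with 11 of 12 rats higher, and -0.76 when scaled to UniSp2.

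At weeks 1 and 4 few or no members were called. The comparisons of weeks 1, 4 and 8 share the baseline samples. At week 1, 2 of the 7 members tested passed the threshold, against 21.6% of the 232 miRNAs tested, and both were 3p arms: miR-30a-3p rose by 0.31 on the log2 scale (standard error 0.11, FDR = 0.0445, edgeR) and miR-30e-3p by 0.32 (0.11, FDR = 0.0431), each with 9 of 12 rats higher. Both calls were lost when libraries were scaled to their size or to UniSp2, without a filter, or in a fit on baseline and week 1 alone, and with the rat as a block the log2 fold change of miR-30a-3p was 0.30 (FDR = 0.0745) and 1 member was called. Leaving out any 1 of strong rats 5, 17, 21, 23 and 29 or of weak rats 3, 6 and 7 left 0 calls, and leaving out weak rat 16 or 25 left 1. miR-30d-3p had the largest log2 fold change of the members at week 1, 0.54 (standard error 0.26, 9 of 12 rats higher, unadjusted p = 0.0424 in edgeR), but was under the abundance filter of this comparison and has no FDR. The 5p arms had log2 fold changes from -0.25 (miR-30c-5p) to 0.10 (miR-30a-5p), none of which passed the threshold.

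At week 4, 0 of 8 members passed the threshold in edgeR (smallest FDR = 0.489, and 0 with an unadjusted p under 0.05), against 4.19% of all 645 miRNAs, and 0 passed in DESeq2. The log2 fold changes lay between 0.11 (miR-30a-3p) and 0.21 (miR-30d-3p). For each member, the ranges of baseline and week 4 overlapped.

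**Figure D2:**
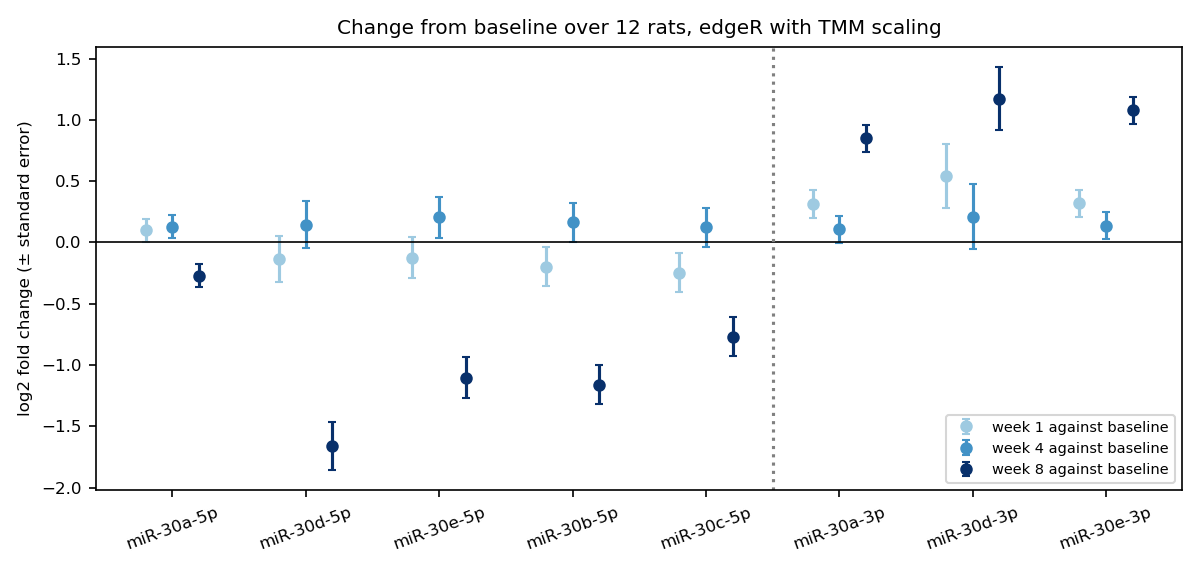
Log2 fold change (± standard error, edgeR with TMM scaling, 12 rats) of the 8 members at weeks 1, 4 and 8 against baseline; the dotted line divides 5p arms on the left from 3p arms on the right. At week 8 the 5p arms lie between -1.66 and -0.27 and the 3p arms between 0.85 and 1.17, while at weeks 1 and 4 all members lie between -0.25 and 0.54, the highest being miR-30d-3p at week 1; with scaling to UniSp2 the 3p arms are below 0 at week 8.

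Week 8 also differed from week 4, the sample before it. All 8 members were called (edgeR, against 40% of the 532 miRNAs tested), the 5 5p arms lower (against 25.8% of miRNAs) and the 3 3p arms higher (against 14.3%). The log2 fold changes were -1.81 for miR-30d-5p (standard error 0.20, FDR = 1.19e-10), -1.32 for miR-30b-5p, -1.31 for miR-30e-5p, -0.89 for miR-30c-5p and -0.40 for miR-30a-5p (standard error 0.09, FDR = 0.000444). The 3p arms were higher by 0.94 (miR-30e-3p), 0.74 (miR-30a-3p) and 0.96 (miR-30d-3p), and at -0.65, -0.84 and -0.64 when scaled to UniSp2. Without strong rat 23, miR-30a-5p was not called (-0.23, FDR = 0.0654).

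Relative to UniSp2 the picture of the 3p arms was reversed, while the gap between the arms was kept. Over the 310 abundant miRNAs, the median log2 fold change under this scaling was -0.32 at week 1 (TMM -0.04), -0.29 at week 4 (TMM 0.07) and -2.01 at week 8 (TMM -0.12). miR-30d-5p had a median of 93.2 reads per 1000 UniSp2 reads at baseline and 8.47 at week 8, and miR-30e-3p of 24.1 and 13.2. Relative to the median of the abundant miRNAs at week 8, miR-30a-3p lay 0.97 higher on the log2 scale with TMM and 0.93 higher with UniSp2, and miR-30d-3p 1.29 and 1.26 higher. By the same measure, miR-30d-5p was at -1.54 and -1.51, and miR-30a-5p at -0.15 and -0.17. A rise of the 3p arms at week 8 was thus seen relative to the miRNA reads only. Relative to UniSp2, added in equal volume at extraction, they were lower, and their amount per volume of plasma was not measured otherwise.

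**Figure D3:**
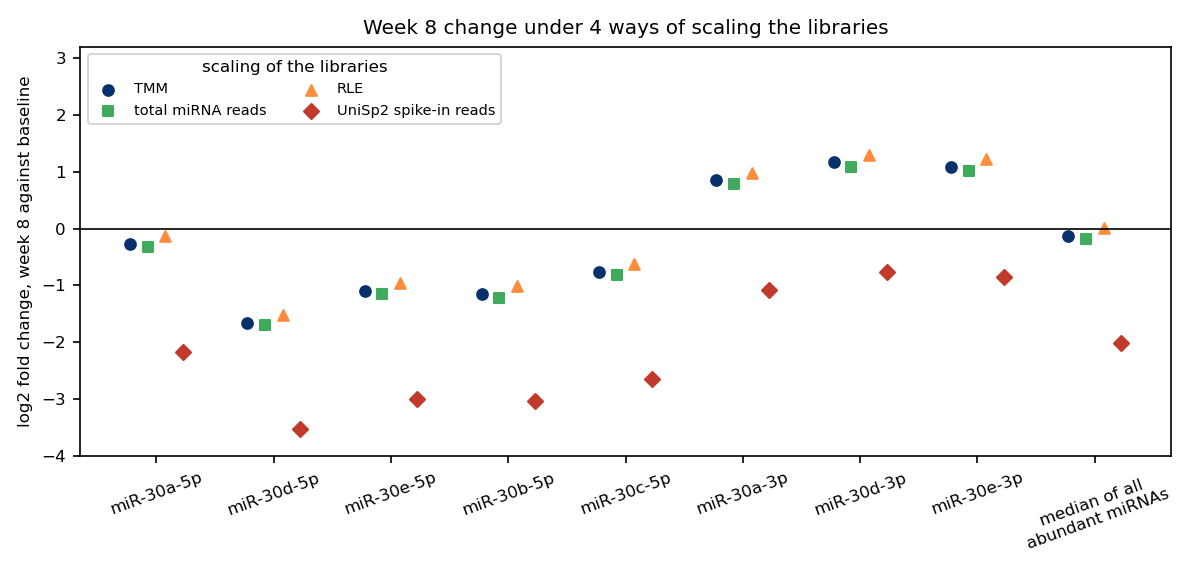
Log2 fold change at week 8 against baseline of the 8 members and the median of the 310 abundant miRNAs under 4 scalings of the libraries (TMM, total miRNA reads, RLE and UniSp2 reads). The 5p arms are below 0 under all 4, whereas the 3p arms lie above 0 under 3 of them and between -1.09 and -0.76 with UniSp2, where the median of all abundant miRNAs is -2.01.

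The ratio of the 2 arms of 1 hairpin does not depend on how the libraries are scaled. For miR-30a it was 4.26, 6.74 and 8.89 3p reads per 100 5p reads (lowest, median and highest) at baseline, 5.77, 7.66 and 10.4 at week 1, 4.85, 6.74 and 9.27 at week 4, and 10.4, 14.1 and 18.7 at week 8. For miR-30d it was 0.0563, 0.356 and 1.01 at baseline, 0.328, 0.603 and 1.12 at week 1, 0.0309, 0.439 and 1.56 at week 4, and 1.24, 2.69 and 5.58 at week 8. For both hairpins the 5p arm was the more abundant in all 48 samples, and all 12 week 8 ratios were above the baseline range.

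For miR-30e the more abundant arm changed. It had 26.7, 51.8 and 79.4 3p reads per 100 5p reads at baseline, 30.6, 69.9 and 156 at week 1, 22.3, 55.0 and 89.8 at week 4, and 147, 230.4 and 312 at week 8. The 3p arm had more reads than the 5p arm in 0 of the 12 baseline samples, 2 of the 12 of week 1, 0 of the 12 of week 4 and 12 of the 12 of week 8. For miR-30a, miR-30d and miR-30e alike, 11 of the 12 week 8 ratios were above all 36 ratios of the other time points. At least 11 were so for 8 hairpins, 9.3% of the 86 with both arms at a mean of at least 10 RPM.

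**Figure D4:**
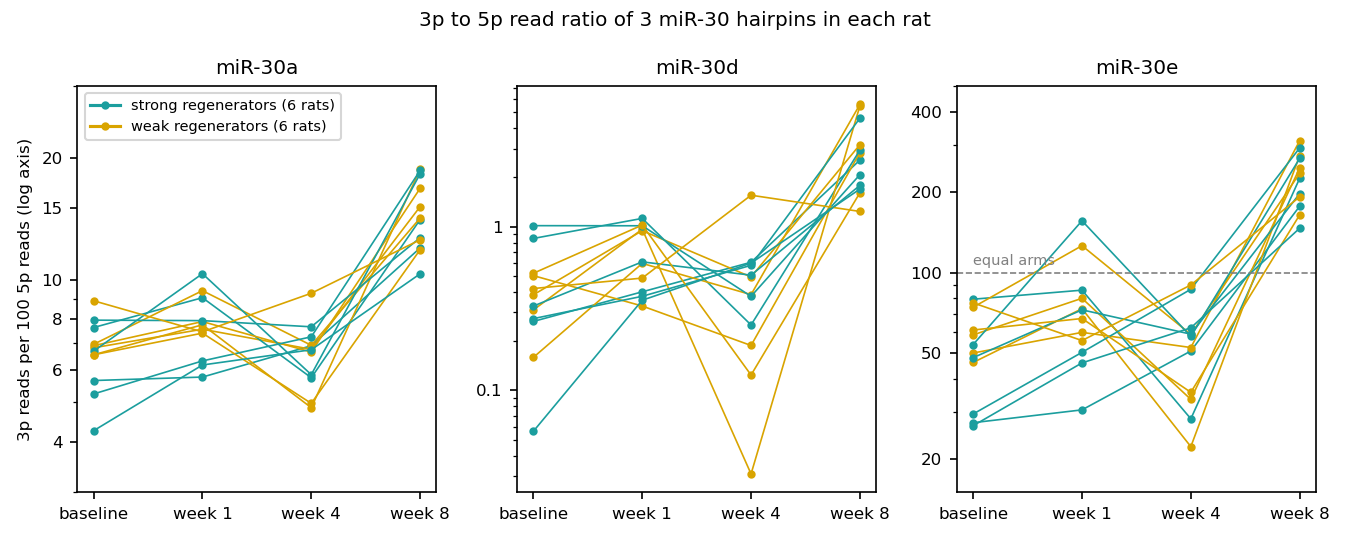
3p reads per 100 5p reads (log axis) of miR-30a, miR-30d and miR-30e at baseline and weeks 1, 4 and 8; each line is 1 rat, turquoise for strong and yellow for weak regenerators. All lines of miR-30e lie above the dashed line of equal arms at week 8, and the lowest ratio of miR-30d, at week 4, rests on 2 reads of its 3p arm.

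The rise of the ratio at week 8 was seen in 12 of 12 rats for each hairpin. The mean change of log2(3p/5p), with 0.5 reads added to each arm, was 1.13 for miR-30a (SD 0.37), 2.92 for miR-30d (SD 1.32) and 2.17 for miR-30e (SD 0.61). The exact two-sided sign-flip permutation test over 12 rats gave p = 0.000488, the smallest it allows, for each (adjusted p = 0.00135 over the 86 hairpins). Over all hairpins, 67.4% were called and 36% were called higher, so a call alone sets these hairpins little apart, and the median change was 0.04. In the order from the largest rise, miR-30d was the 2nd of 86, miR-30e the 4th and miR-30a the 21st. Against week 4, the changes were 1.14, 2.94 and 2.18 for miR-30a, miR-30d and miR-30e (adjusted p of the exact permutation test 0.0014, 0.0024 and 0.0014), where 65.1% of hairpins were called and 34.9% called higher.

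At week 1 the ratio changed by 0.22 for miR-30a (10 of 12 rats higher), 0.84 for miR-30d (11 of 12) and 0.48 for miR-30e (11 of 12), and none passed the threshold (adjusted p = 0.0770 for each in the exact permutation test), nor did any other hairpin (0%). Without weak rat 3, miR-30d was called, and without weak rat 25, miR-30a and miR-30e were called (adjusted p = 0.042 each, exact permutation test). At week 4 the changes were -0.01, -0.01 and -0.01 (adjusted p = 0.992 in the exact permutation test, where 1.16% of hairpins were called), with 4, 7 and 7 of 12 rats higher.

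**Figure D5:**
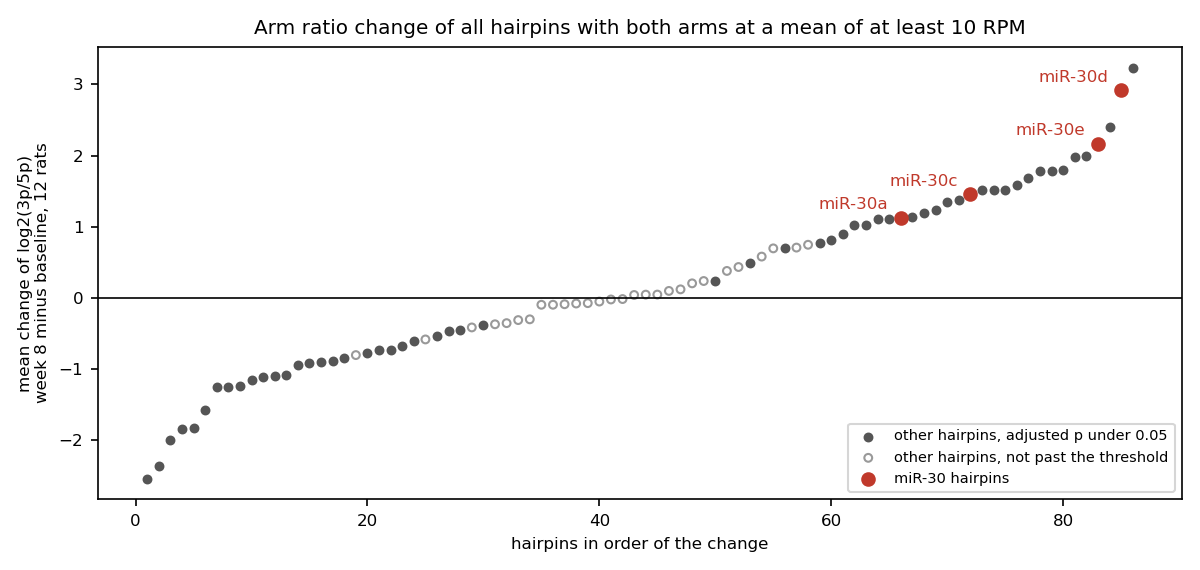
Mean change of log2(3p/5p) from baseline to week 8 over 12 rats for 86 hairpins in order of size; red points are the miR-30 hairpins, filled grey points are other hairpins with an adjusted p under 0.05 and open points those that did not pass it. The changes of the hairpins run in both directions, with miR-30d (2.92) and miR-30e (2.17) near the upper end and miR-30c (1.45) and miR-30a (1.13) below them.

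The other arms of the family and the miRNA with the same seed were at low levels. The mean levels were 19.8 RPM for miR-30c-2-3p, 7.95 for miR-30c-1-3p, 1.43 for miR-384-5p and 0.92 for miR-30b-3p. The 2 3p arms of miR-30c share a seed and differ at 3 of 22 bases (G9A, U12C and C22U, counted from the 5′ end of miR-30c-1-3p), and miR-384-5p has the seed of the 5p arms.
rno-miR-30c-1-3p: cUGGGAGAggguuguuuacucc
rno-miR-30c-2-3p: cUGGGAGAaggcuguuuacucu
rno-miR-384-5p: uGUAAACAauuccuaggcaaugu
At week 8, 1 of these 4 was called, against 40.3% of all miRNAs tested. miR-30c-2-3p had a median of 17.6 RPM at baseline (9.41 to 29.1) and 28.4 at week 8 (15.3 to 64.9), which overlapped, with a log2 fold change of 0.88 (standard error 0.23, FDR = 0.00141, edgeR). miR-30c-1-3p changed by 0.41 (FDR = 0.272), miR-30b-3p by 0.19 (FDR = 0.848) and miR-384-5p by -1.32 (FDR = 0.0693), none past the threshold. With both 3p arms summed, miR-30c had a median of 3.34 3p reads per 100 5p reads at baseline (2.03 to 7.02) and 9.25 at week 8 (6.02 to 14), a mean log2 change of 1.45 (SD 0.72, 12 of 12 rats higher, adjusted p = 0.00135 in the exact permutation test), the 15th largest rise of 86.

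Strong and weak regenerators, the contrast of the study's outcome, were compared for each member. For miRNAs outside the family, the study reports significant differences between these groups over all time points, at the same FDR threshold, and already at baseline. In the main fits here no miRNA passed in either comparison. The study's calls were thus not reproduced, and the reason was not tested. Over all time points, 0 of 8 members passed the threshold in edgeR and 0 in DESeq2, against 0% of all 645 miRNAs (64 miRNAs and 1 member had an unadjusted p under 0.05 in edgeR). The largest difference was that of miR-30e-3p, at -0.20 on the log2 scale, strong minus weak (standard error 0.08, FDR = 0.272), and those of the 5p arms lay between -0.04 and -0.00 with standard errors from 0.07 to 0.13. At baseline, before surgery, miR-30e-3p was at -0.33 (standard error 0.16, FDR = 0.698) and miR-30e-5p at 0.26 (0.24, FDR = 0.769), and 0 members were called, nor were any at week 1, 4 or 8 (0% of miRNAs at baseline and weeks 1 and 4, and 0.155% at week 8).

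The changes over time were not called different between strong and weak regenerators for any member in edgeR (smallest FDR = 0.705) or DESeq2, against 0% of miRNAs. The difference was largest at week 4, where the change in strong minus that in weak regenerators was -0.60 for miR-30b-5p (standard error 0.32, FDR = 0.705) and -0.59 for miR-30e-5p (0.33, FDR = 0.705). At week 8 it ran from -0.38 for miR-30d-3p (standard error 0.53) and -0.33 for miR-30e-5p (0.33) to 0.15 for miR-30a-3p (0.23), none past the threshold.

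The arm ratios of the groups overlapped too. At week 8, miR-30e had 147 to 293 3p reads per 100 5p reads in strong regenerators (median 211) and 164 to 312 in weak regenerators (median 240.8), and miR-30a had 10.4 to 18.6 (median 13.4) and 11.9 to 18.7 (median 14.7). Over all time points, log2(3p/5p) differed between strong and weak regenerators by -0.08 for miR-30a, 0.09 for miR-30d and -0.15 for miR-30e (adjusted p = 0.931, 0.935 and 0.931, exact permutation test over all splits of the 12 rats into 6 and 6), and 0% of the hairpins were called.

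The miRNAs with the time course most like that of the family were found by the mean absolute difference of the log2 change from the rat's own baseline over 36 rat-weeks, among 301 other abundant miRNAs. Nearest to the mean of the 5p arms of miR-30a, miR-30d and miR-30e were miR-21-5p at 0.20, miR-29b-3p at 0.22, miR-29a-3p at 0.23, miR-106b-5p at 0.23 and miR-142-5p at 0.31, where the median over all was 0.83. Their log2 fold changes at week 8 ran from -1.26 (miR-142-5p) to -0.68 (miR-29a-3p). Nearest to the mean of the 3p arms were miR-1843a-5p at 0.29, miR-221-3p at 0.30, miR-363-3p at 0.31, miR-19b-3p at 0.34 and miR-362-3p at 0.36 (median over all 0.94), with log2 fold changes at week 8 from 0.79 (miR-362-3p) to 1.01 (miR-363-3p), again relative to the miRNA reads. These are likenesses within the same libraries and baselines.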

How the data were processed

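Small RNA of plasma was sequenced after single-adapter ligation. By the study's methods, the authors trimmed reads with cutadapt 3.3, discarded reads under 17 nt, mapped them with bowtie 1.3.0 (2 mismatches allowed for the rat genome, 1 for miRBase) and counted them with miRDeep2, and they deposited raw counts of 645 miRNAs and 3 spike-ins, without normalization. Total counts ranged from 393259 to 1586398 per sample, and counting error only is covered by them.

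Samples were grouped by animal and time point in the labels, and baseline samples took the regeneration group of their animal. Counts were tested with edgeR 4.0.16 in R 4.3.3 (quasi-likelihood, TMM, 48 samples, time point as the factor, an independent filter on mean RPM, Benjamini-Hochberg, FDR under 0.05). Strong and weak regenerators were compared with the time point as a covariate, or in a fit of the 8 groups. No term for the animal entered these fits, so the p-values take its 4 samples as unrelated. The number in a label marks the animal, so the numbers pair the samples: deviations from the group means correlated by 0.107 on average within rats and -0.0289 between rats. No sample was a copy of another (chi-square per degree of freedom from 23.0 to 848.0 over 1128 pairs).

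Ratios of arms used log2((3p + 0.5)/(5p + 0.5)), the exact sign-flip permutation over 12 rats (4096 patterns) and exact permutation of 6 against 6 rats, all two-sided, with numpy 2.4.6. The family, the related arms, 4 marker lists (red blood cells, platelets and leukocytes, liver, muscle) and the tests were chosen with earlier results of these data known. The miRNAs named in the results are the members, the related arms and the 5 nearest in time course. Scripts were tested on simulated data. Alternatives were library size, RLE or UniSp2 scaling, filterByExpr or no filter, DESeq2 1.42.0, the rat as a block, summed samples, fewer time points, other count and RPM minima and each rat left out. Treatments were not used here.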

Additional observations from a re-analysis of the deposited data

Results flagged for a closer look

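Of 88 groups of 6 samples examined, 10 held a sample set far apart from the others of its group, where chance gives about 1 in 20. These groups are measures of the same libraries, and the ratios are built from the members. The flags are thus linked, and no excess over chance can be read from them. In strong regenerators at week 8, rat 29 was high in 3 of the 5p arms: miR-30a-5p at 9355 RPM (next sample 7263), miR-30d-5p at 2262 RPM (next 1121) and miR-30e-5p at 1024 RPM (next 778). In strong regenerators at week 4, rat 21 had 13598 RPM of miR-30a-5p (next 9161). In weak regenerators, rat 25 had 883 RPM of miR-30a-3p at baseline (next 606) and 42.9 RPM of miR-30d-3p at week 4 (next 16.4). Its ratio of miR-30a was 8.89 3p reads per 100 5p reads at baseline (next 6.94) and that of miR-30d 1.56 at week 4 (next 0.493). Weak rat 16 had high ratios at week 1, 9.41 for miR-30a (next 7.90) and 126 for miR-30e (next 80.1). Without rat 29, the log2 fold change of miR-30a-5p at week 8 was -0.21 and was no longer called (FDR = 0.0805, edgeR). The call was also lost without any 1 of strong rats 5, 17 and 23 or of weak rats 3, 6 and 7, so this loss is not particular to rat 29.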

How the results depend on the processing

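Of the 8 members called at week 8 against baseline and against week 4, 7 to 8 were called under every alternative run and with each rat left out. The 5p arms kept their direction, and with UniSp2 scaling the 3p arms reversed at week 8 against baseline (miR-30a-3p -1.09, miR-30d-3p -0.76, miR-30e-3p -0.85) and against week 4 (-0.84, -0.64 and -0.65). The cause was not tested. At week 1, the 2 member calls became 0 with library size only, UniSp2 scaling, no filter or only the 2 time points, and 1 with the rat as a replicate block, which changed no other call of a member; with each rat left out they ranged from 0 to 2. The week 1 ratio calls, 0 of 3, ranged from 0 to 2 with each rat left out. Ratio calls at week 8 were 3 under every alternative. Over all miRNAs, calls at week 1 went from 50 to 32 with library size only, to 25 without a filter, to 62 with UniSp2 scaling and to 24 to 47 with each rat left out. With UniSp2 scaling, calls went from 27 to 61 at week 4, from 250 to 499 at week 8 and from 213 to 468 between weeks 8 and 4. Between strong and weak regenerators, calls over all miRNAs were 0, and 2 without strong rat 2 and 1 without weak rat 3, weak rat 26 or strong rat 29. Depth limits miR-30d-3p and the minor arms of miR-30b and miR-30c above all.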
